A study of Homo sapiens with 12 samples.

Results

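RNU11, RNU12, RNU4ATAC and RNU6ATAC encode the U11, U12, U4atac and U6atac small nuclear RNAs (snRNAs) of the minor spliceosome, and were examined for chromatin occupancy of an EGFR chimera. These 4 genes, of 1901 snRNA genes and 62700 genes in all in the annotation, were chosen with the summits of these data in view, because summits had been seen at some of them. Every summit inside the annotated limits of a gene extended by 500 bp on each side was taken, which gave 8 summits at 3 genes. Because the genes were selected on these summits, their presence is described and not tested.

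ChIP-seq was performed in B2B1 cells, which are a single clone derived from MCF10A-5E, a human breast epithelial cell line. The clone carries 2 retrovirally delivered chimeras, each with the extracellular part of NGFR in place of the receptor's own: NGFR-EGFR-FRB with a GluGlu tag and NGFR-Erbb2-2xFKBP, built on rat Erbb2, with an HA tag. AP21967 (AP) is a small molecule that bridges FRB and FKBP and so pairs the chimeras. All cells were grown for 7 days in overlay culture with matrigel and EGF. The plus AP cultures received 0.5 µM AP for the last 24 h and the minus AP cultures 0.1% ethanol. Of 12 libraries, the 4 GluGlu immunoprecipitates were analysed, with 2 biological replicates in each of 2 conditions, and the 8 libraries of input chromatin or naive IgG are not analysed here. The presence of the chimera in these cells was not checked here, since summit lists carry no measure of it.

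The minor spliceosome removes the rare U12-type introns, whose splice sites differ from those read by the major spliceosome. U11 pairs with the 5′ splice site and U12 with the branch site, and the pair enters the intron together as a di-snRNP. U4atac chaperones U6atac into the complex with U5 and then leaves, so that U6atac can pair with U12 and the 5′ splice site in the catalytic core. U11, U12 and U4atac are products of RNA polymerase II and are assembled on a ring of Sm proteins, whereas U6atac is a product of RNA polymerase III and carries an LSm ring. Their genes lack introns and depend on upstream promoter elements, a proximal sequence element (PSE) bound by SNAPc and often a distal octamer bound by Oct-1, and RNA polymerase III snRNA promoters have a TATA box as well.

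The 250 bases before each annotated start are shown because most of the summits fell there or inside the RNA. All sequences were read 5′ to 3′ along the strand of the gene from GRCh38. Capitals mark the octamer ATGCAAAT, on either strand, or the PSE-like pattern ACCNTNANNNNNAA. The stretches lie at chr1:28648350-28648599 and chr22:42614994-42615243, both plus strand, at chr2:121530631-121530880, plus strand, and at chr9:134164565-134164814, minus strand.
RNU11 upstream: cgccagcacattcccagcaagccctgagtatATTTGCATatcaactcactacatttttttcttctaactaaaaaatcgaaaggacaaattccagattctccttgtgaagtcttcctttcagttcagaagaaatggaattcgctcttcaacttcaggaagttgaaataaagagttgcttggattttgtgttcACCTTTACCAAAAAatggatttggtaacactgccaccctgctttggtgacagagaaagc
RNU12 upstream: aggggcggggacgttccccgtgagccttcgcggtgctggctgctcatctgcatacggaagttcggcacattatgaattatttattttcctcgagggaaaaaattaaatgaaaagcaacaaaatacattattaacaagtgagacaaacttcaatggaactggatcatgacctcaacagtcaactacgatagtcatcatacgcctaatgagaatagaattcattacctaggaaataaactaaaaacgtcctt
RNU4ATAC upstream: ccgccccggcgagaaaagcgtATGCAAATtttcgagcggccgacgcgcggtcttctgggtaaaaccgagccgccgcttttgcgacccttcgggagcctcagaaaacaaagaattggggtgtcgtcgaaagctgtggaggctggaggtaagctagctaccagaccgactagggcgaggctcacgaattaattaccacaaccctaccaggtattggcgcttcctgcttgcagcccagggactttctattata
RNU6ATAC upstream: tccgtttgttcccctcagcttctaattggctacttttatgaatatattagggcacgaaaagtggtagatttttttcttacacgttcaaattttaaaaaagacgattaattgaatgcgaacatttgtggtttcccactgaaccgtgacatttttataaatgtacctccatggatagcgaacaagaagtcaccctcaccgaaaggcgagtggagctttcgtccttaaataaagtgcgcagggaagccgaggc

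The RNAs of RNU11 and RNU4ATAC are shown because a summit lay inside each, and that of RNU6ATAC because it is the member with no summit and belongs to the other polymerase. Capitals mark the letters AATTTTT, the core of the site that the Sm ring binds.
RNU11 RNA: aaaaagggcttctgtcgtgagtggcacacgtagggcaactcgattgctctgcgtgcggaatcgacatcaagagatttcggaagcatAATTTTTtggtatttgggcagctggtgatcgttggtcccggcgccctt
RNU4ATAC RNA: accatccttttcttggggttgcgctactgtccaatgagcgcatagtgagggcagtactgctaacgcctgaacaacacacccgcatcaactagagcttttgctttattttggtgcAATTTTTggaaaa
RNU6ATAC RNA: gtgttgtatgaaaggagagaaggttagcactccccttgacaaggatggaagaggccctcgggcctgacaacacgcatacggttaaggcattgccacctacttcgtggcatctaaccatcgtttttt

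The letters AATTTTT were found at bases 87 to 93 of U11, 74 to 80 of U12 and 115 to 121 of U4atac, counted from 1 at the 5′ end. They were not found in U6atac, the RNA of the LSm class. Upstream, the octamer was matched at 219 to 212 bp before RNU11, on the opposite strand as ATTTGCAT, and at 229 to 222 bp before RNU4ATAC, on the strand of the gene. Of 35116 RefSeq promoters cut to the same 250 bases, 573 (1.63%) held the octamer on either strand. The PSE-like pattern was likewise sought on either strand. Among the 4 members it was matched only before RNU11, at 59 to 46 bp from the start, and it occurred in 645 promoters (1.84%). The letters TATAA were again sought on either strand, and their matches had no overlap with the other motifs. They were matched directly before the start of RNU4ATAC, on the opposite strand as TTATA. Before RNU6ATAC they were matched at 98 to 94 bp on the strand of the gene and at 99 to 95 bp on the opposite strand. They occurred in 6646 promoters (18.9%). None of these 3 motifs was matched before RNU12. A match is a description of letters and not a site of binding, and a missing match says only that these letters are not in the window. GC content of the upstream stretch was 39.2% at RNU11, 40.4% at RNU12, 40.8% at RNU6ATAC and 55.6% at RNU4ATAC, so that RNU4ATAC stood apart from the other members in base composition.

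The lists differed widely in length. Minus AP replicates 1 and 2 held 739 and 56 summits, and plus AP replicates 1 and 2 held 1094 and 297. Each summit carries a score, which is its MACS2 q-value as −log10. The median score was 6.02 and 3.93 in the minus AP lists and 5.45 and 4.38 in the plus AP lists. Inside the limits of any gene extended by 500 bp lay 134 of 739, 54 of 56, 191 of 1094 and 278 of 297 summits in the same order, so the second replicates of both conditions were made up mostly of summits near genes. Scores depend on depth, which the lists do not give, and were therefore compared only as ranks inside a list, with rank 1 the highest score and equal scores sharing the better rank.

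Summits at the minor spliceosome snRNA genes were found in all 4 lists, and at more members in plus AP than in minus AP cells. With AP, the same 3 members, RNU11, RNU12 and RNU4ATAC, carried a summit in both replicates. Without AP, RNU4ATAC carried a summit in replicate 1 only and RNU11 in replicate 2 only, so that no member recurred. RNU6ATAC had no summit in any list. The background without AP was 0.201% of all genes in replicate 1 and 0.100% in replicate 2, against 1 of 4 members in each list. With AP it was 0.278% in replicate 1 and 0.547% in replicate 2, against 3 of 4 members in each. For genes recurring in both replicates, it was 0.0510% without AP, where the count of members was 0, and 0.116% with AP, where it was 3. The members were chosen on the same lists, so nothing is read from these shares. Within each replicate number the count was 1 without AP and 3 with AP. Within replicate 1, RNU11 and RNU12 had a summit with AP only, and within replicate 2, RNU12 and RNU4ATAC did. The plus AP list was also the longer of each such pair. Across replicate numbers, the 739 summits of minus AP replicate 1 reached 1 member and the 297 of plus AP replicate 2 reached 3. Of summits near genes, both plus AP lists held more (191 and 278) than both minus AP lists (134 and 54). The part of list length, or of the number of summits near genes, in the counts was not tested. With each list cut to the 56 summits of the shortest, the count was 0 in replicate 1 and 1 in replicate 2, both without and with AP. Under that cut, or with limits of 0 bp, the count recurring with AP was 0. The difference between plus and minus AP cells was not tested, and with 2 libraries against 2 an exact permutation test cannot go below a two-sided p of 0.333.

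**Figure D1:**
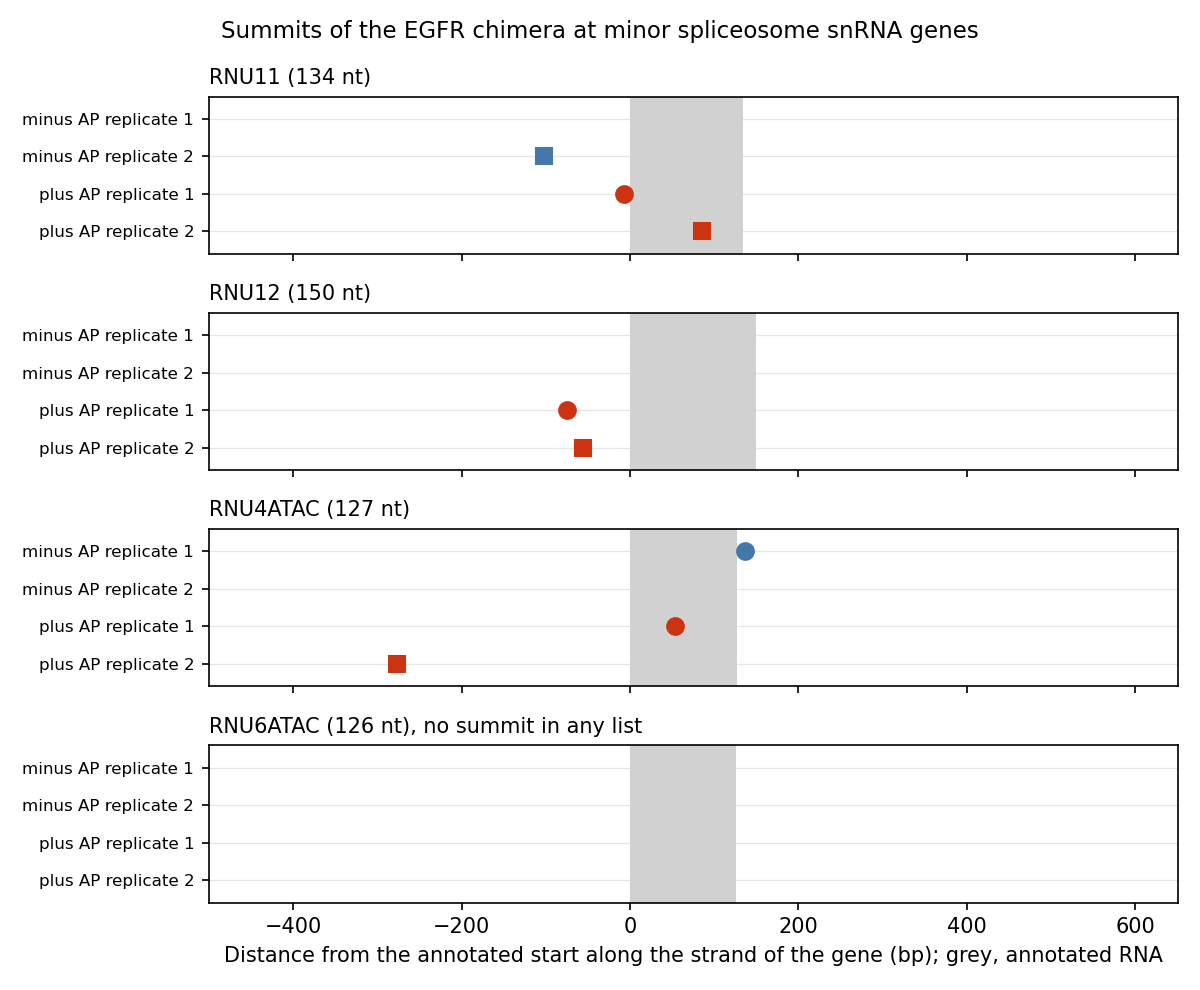
Positions of the 8 summits relative to the annotated start of each gene, in bp along the strand of the gene, with 1 row for each list. Blue marks minus AP and red plus AP, circles are replicate 1 and squares replicate 2, and grey is the annotated RNA. The summits lie between 277 bp before and 136 bp after the start, and the row of each list is empty for RNU6ATAC.

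The summits lay close to the starts of the genes. Of the 8, 5 lay upstream of the start, 2 inside the RNA and 1 past its end. The offset from the start had a median of −31.5 bp and ranged from −277 to 136 bp, with an SD of 129.4 bp (n = 8 summits at 3 genes). Within 150 bp of the start lay 7 of the 8, and the plot of positions shows the exception, the RNU4ATAC summit of plus AP replicate 2. The farthest summit inside the limits was that at −277 bp, and extending the limits from 500 to 5000 bp added no summit at any member.

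RNU11 encodes U11, which recognises the 5′ splice site. The gene lies at chr1:28648600-28648733 on the plus strand (ENSG00000274978.1, 134 nt, a gene of a single exon). In plus AP replicate 2 the summit lay inside the RNA, 85 bp after the start, with a score of 13.8 and rank 9 of 297 (the highest 3.03%). In plus AP replicate 1 it lay 7 bp before the start, with a score of 7.38 and rank 404 of 1094 (36.9%). In minus AP replicate 2 it lay 102 bp before the start, with a score of 3.93 and rank 28 of 56 (50.0%). The RNU11 summit was the highest ranked of the members in both plus AP lists. The nearest summit in minus AP replicate 1 was 141837 bp away, although 129 summits of that list lay on chromosome 1. The 3 RNU11 summits were 92 to 187 bp apart. The PSE-like letters at 59 to 46 bp before the start fall between the summits at −102 and −7 bp.

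The 3 summits at RNU11 were near a second start. TAF12, which encodes a subunit of the general transcription factor TFIID, is transcribed away from RNU11 on the opposite strand, and its start lies 309 bp from that of RNU11. The summits lay 207, 302 and 394 bp from the TAF12 start, in the order of replicate 2 without AP and replicates 1 and 2 with AP. Each was therefore nearer to the start of RNU11 than to that of TAF12, but all lay within 500 bp of both. The minus AP summit was in exon 2 of TAF12-DT, a divergent lncRNA that ends 19 bp before RNU11. That of plus AP replicate 2 was in exon 1 of the lncRNA ENSG00000270103, annotated from the same start as RNU11 at chr1:28648600-28648730. No other summit was found in TAF12, TAF12-DT or ENSG00000270103.

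RNU12 encodes U12, which pairs with the branch site. The gene lies at chr22:42615244-42615393 on the plus strand (ENSG00000276027.1, 150 nt). Its summits were found only in the plus AP lists, and their positions were the most alike between replicates. In plus AP replicate 1 the summit lay 75 bp before the start, with a score of 4.32 and rank 659 of 1094 (60.2%). In plus AP replicate 2 it lay 56 bp before the start, with a score of 4.38 and rank 129 of 297 (43.4%). The 2 positions were 19 bp apart, in the upstream stretch printed above where none of the 3 motifs was matched. The minus AP lists held 1 summit each on chromosome 22, at 30799575 and 3454590 bp from RNU12.

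The RNU12 summits lay in intron 5 of ENSG00000289517, an annotated protein-coding gene on the opposite strand that spans the locus. POLDIP3, which encodes an RNA-binding protein that interacts with a DNA polymerase delta subunit, starts 282 bp from RNU12 on the opposite strand. The summits lay 207 and 226 bp from the POLDIP3 start in plus AP replicates 1 and 2, farther than from the start of RNU12. The lncRNA ENSG00000270022, which shares the start of RNU12, held no summit. CYB5R3, which encodes cytochrome b5 reductase, ends 337 bp beyond RNU12 and held none.

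RNU4ATAC encodes U4atac, the partner that holds U6atac inactive before splicing. The gene lies at chr2:121530881-121531007 on the plus strand (ENSG00000264229.1, 127 nt). In minus AP replicate 1 the summit lay 10 bp past the end of the RNA, 136 bp from the start, with a score of 3.68 and rank 535 of 739 (72.4%). In plus AP replicate 1 it lay inside the RNA, 54 bp after the start, with a score of 2.84 and rank 862 of 1094 (78.8%). In plus AP replicate 2 it lay 277 bp before the start, with a score of 5.32 and rank 91 of 297 (30.6%). The RNU4ATAC summits ranked below the middle of both replicate 1 lists and above the middle of plus AP replicate 2. Those of plus AP replicate 1 and minus AP replicate 1 were 82 bp apart, whereas those of the plus AP replicates were 331 bp apart, so recurrence with AP did not mean the same position. Minus AP replicate 2 held no summit on chromosome 2.

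RNU4ATAC lies in intron 2 of CLASP1, which encodes a microtubule plus-end protein and starts 118595 bp away on the opposite strand. It also lies in intron 1 of CLASP1-AS1, a lncRNA on its own strand that starts 459 bp before it. The summits were 595, 513 and 182 bp from the CLASP1-AS1 start in replicate 1 without AP and in replicates 1 and 2 with AP. The summit of plus AP replicate 2 was thus nearer to the start of CLASP1-AS1, in whose exon 1 it lay, than to that of RNU4ATAC. No summit was found elsewhere in CLASP1 in any of the 4 lists.

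RNU6ATAC encodes U6atac, the catalytic partner in the minor spliceosome. The gene lies at chr9:134164439-134164564 on the minus strand (ENSG00000221676.1, 126 nt), outside any other annotated gene. The nearest summit without AP was 73489566 bp away in replicate 1, and replicate 2 held none on chromosome 9. With AP it was 4067315 bp away in replicate 1 and 6714622 bp in replicate 2. No summit was called at RNU6ATAC, as at most genes of the annotation, and the lists carry no reads from which a lower level could be read. The nearest genes, WDR5 at 4471 bp and the lncRNA ENSG00000273473 at 4205 bp, held no summit. WDR5 encodes a subunit of histone H3 lysine 4 methyltransferase complexes.

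**Figure D2:**
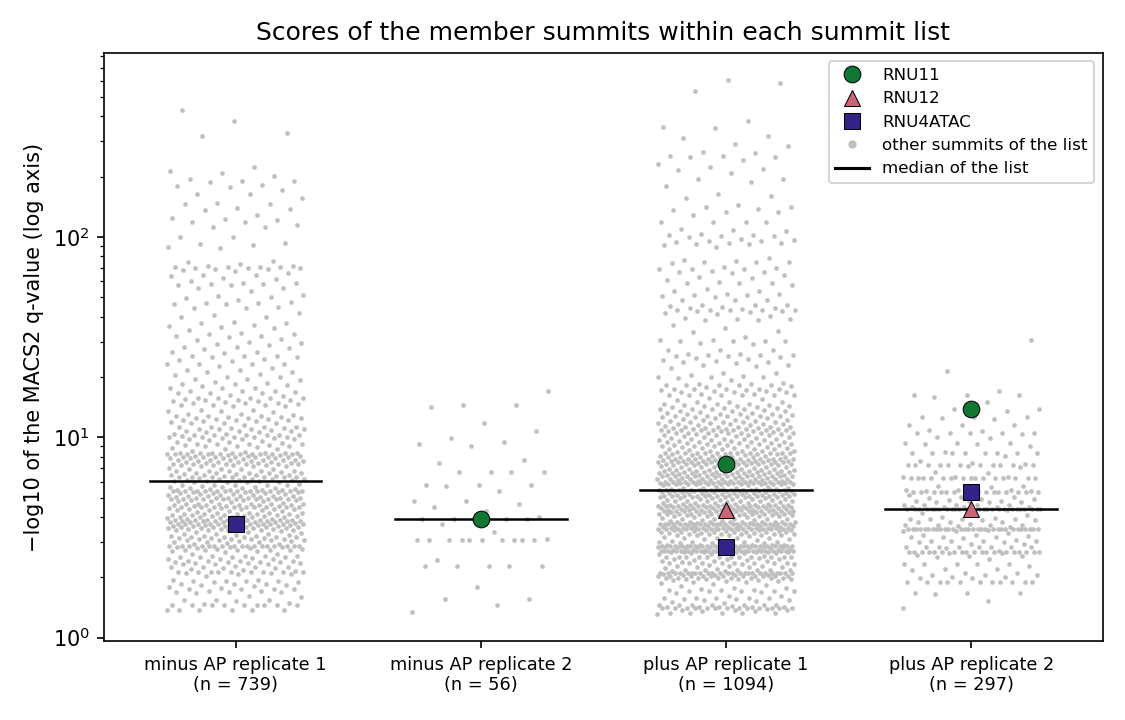
Scores of all summits of each GluGlu list as −log10 of the MACS2 q-value, on a log axis, with 1 column for each list, a black line at its median and coloured symbols for the members. The RNU11 summit of plus AP replicate 2, at 13.8, is near the top of its list, and the RNU4ATAC summits of both replicate 1 lists, at 3.68 and 2.84, are below the medians of 6.02 and 5.45.

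RNU11 led the members in both plus AP lists, whereas the order of the others changed between replicates. With AP, RNU12 ranked above RNU4ATAC in replicate 1 and below it in replicate 2. When only summits near genes were ranked, the RNU11 summits stood at 27 of 54 in replicate 2 without AP, and at 53 of 191 and 9 of 278 in replicates 1 and 2 with AP. In the same ranking, RNU12 stood at 107 of 191 and 124 of 278 with AP. RNU4ATAC stood at 91 of 134 without AP, and at 147 of 191 and 88 of 278 with AP. The plot of scores shows that, apart from RNU11 in plus AP replicate 2, the member summits lay in the body of each list.

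The sequence of the loci allows reads of 75 bases to be placed. Every 75-base sequence of RNU11, RNU12 and RNU6ATAC with 500 bp on each side occurred once in the genome, 1060 of 1060, 1076 of 1076 and 1052 of 1052. At RNU4ATAC, 1047 of 1053 (99.4%) did. All 427 such sequences in the 250 bp on each side of each of the 8 summits also occurred once. The RNU6ATAC locus, which had no summit, was thus as unique in this measure as those with summits. Whether the placing of reads bears on the missing summit was not tested. The major spliceosomal snRNA genes ranged from 0 to 100% in the same measure (median 99.6%, n = 13). RNU1-3 and RNU1-4 had 0 of 1090 unique sequences and still had a summit in both replicate 1 lists, although the methods of the study state that uniquely mapped reads were kept.

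Annotated copies, taken as genes named for a member with a copy number and P, were looked at because reads of a gene and its copies can be confused. There were 64, of which 41 were named for RNU6ATAC, 17 for RNU4ATAC, 5 for RNU11 and 1 for RNU12. None had a summit within 500 bp in any of the 4 lists, and the closest summit to a copy was 17643 bp from RNU6ATAC32P. With 0.100% to 0.547% of all genes called in a list, a count of 0 of 64 is near the background, and nothing is read from it.

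The snRNA genes of the major spliceosome were the nearest comparison, since they belong to the same polymerase class as RNU11, RNU12 and RNU4ATAC. Of all 1901 annotated snRNA genes, 1.53% and 0.158% had a summit in minus AP replicates 1 and 2, and 1.68% and 0.579% in plus AP replicates 1 and 2. Of the 13 major genes, 10 and 2 had a summit in minus AP replicates 1 and 2, and 12 and 7 in plus AP replicates 1 and 2. In both minus AP lists these were RNU2-2P and RNU5A-1, and in both plus AP lists RNU2-2P, RNU4-2, RNU5A-1, RNU5B-1, RNU5D-1, RNU5E-1 and RNU5F-1. Together with RNU11, RNU12 and RNU4ATAC they made up all 10 of the 1901 annotated snRNA genes with a summit in both plus AP lists. The 31 summits at the major genes had a median distance from the start of 133 bp, against 80.0 bp at the minor spliceosome genes, and offsets from −205 to 298 bp. Among the major genes, 18 of 31 summits lay within 150 bp of the start, against 7 of 8 at the minor spliceosome genes. Distance takes no account of side. Most summits at the major genes lay after the start, whereas 5 of 8 at the minor spliceosome genes lay upstream. These differences were not tested, since summits of 1 library are not independent. Within their annotated RNAs, the RNU1 genes and RNU2-1 had 0 unique sequences of 75 bases. The bearing of this on the positions of their summits was not tested. The octamer was matched before 6 of 13 major genes, the PSE-like pattern before 1 and TATAA before 3.

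The RNA polymerase III genes, the class of RNU6ATAC, had no summit. These were 5 active U6 genes and RN7SK, RMRP, RPPH1, RNY1, RNY3 and RNY4, and the count was 0 of 11 in each of the 4 lists. Before 7 of them the octamer was matched, before 3 the PSE-like pattern and before 10 TATAA. Genes of the wider pathway had no summit either. The count was 0 of 15 for the protein genes of the minor spliceosome, among them SNRNP48 and RNPC3 of the U11/U12 particle and ZRSR2, which reads the 3′ splice site. It was 0 of 17 for genes of snRNA transcription, which encode SNAPc, Integrator and elongation factors. The background shares over all genes given above were below 1% in every list, so nothing is read from these counts of 0.

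**Figure D3:**
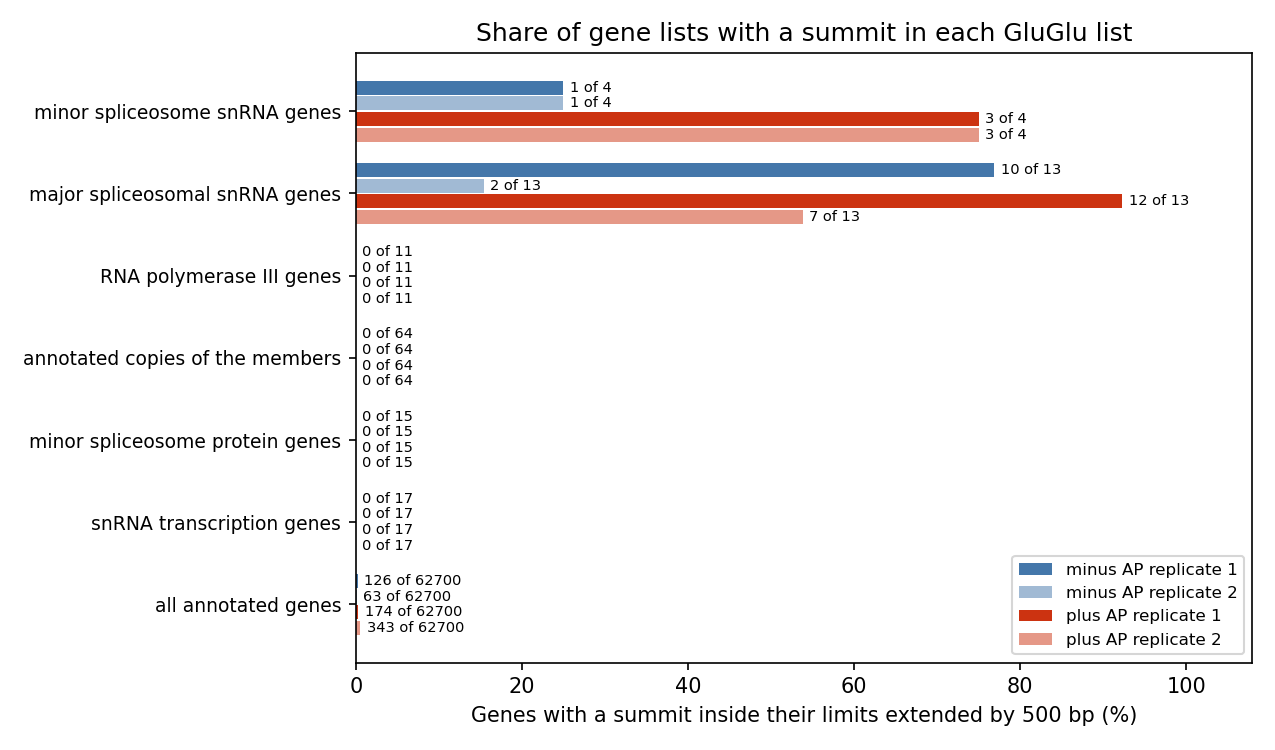
Share of genes with a summit inside their limits extended by 500 bp, in percent, for each gene list and each GluGlu list, with the counts printed at the bars. Bars start at 0 and have no error bars, since each is 1 library. The minor spliceosome snRNA genes reach 3 of 4 in both plus AP lists and the major genes 12 of 13 and 7 of 13. All annotated genes, the background, lie between 0.100% and 0.547%, and the other lists are at 0.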

How the data were processed

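Summit lists of 4 GluGlu ChIP-seq libraries were analysed. According to the methods of the study and the submitters' processing notes, the authors checked paired 75-bp reads with FastQC 0.11.5 and aligned them to GRCh38 with Bowtie2 2.2.9. The methods state that duplicates and reads without a unique place were dropped, and that MACS2 2.2.7.1 was run at default settings with input chromatin as the control. The results section of the study speaks instead of enrichment over naive IgG, so the control behind the scores is not settled by its text. The deposited value of a summit is a −log10 q-value from the authors' MACS2 run, and all values exceeded 1.301, which stands for 0.05. Lists were deposited per library and not pooled. Read depth is unknown, so no counting intervals are given. The replicate 1 lists nevertheless hold summits at RNU1-3 and RNU1-4, where 0 of 1090 sequences of 75 bases are unique, so how reads with several places were treated is not settled by the lists.

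Libraries were grouped by their titles. Genes were taken from GENCODE 44. A summit belonged to a gene inside its limits extended by 500 bp, and neighbours were genes within 5000 bp. The members and the comparison lists were chosen with earlier results of these data known. Named genes were the members, their neighbours and genes of the comparison lists with a summit. A few list genes without one were named after their values were seen. RNU2-2, RNY5 and CPSF3L have no entry of that name in GENCODE 44, leaving 13 of 14, 11 of 12 and 17 of 18 genes. The RefSeq promoter table (GRCh38) holds 0 of the 4 members, whose sequences were read from the genome. Exact 75-base sequences were counted on both strands over 194 contigs. Python 3.11.15, numpy 2.4.6, numba 0.67.0, pysam 0.24.0 and matplotlib 3.10.9 were used, and assignment, motif search and sequence counting were tested on simulated data. Alternatives changed the limits (0, 250, 1000 and 5000 bp), the minimum score (2), the list length, the reference point and the replicates. Ranking among summits near genes was added after seeing the data.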

Additional observations from a re-analysis of the deposited data

How the results depend on the processing

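Of 71 alternative values, 56 stayed close to those reported and 15 moved, and a reversal of direction was not scored. The rule for close was loose, since a count of 2 against 3 still passed it. The median position of the summits also passed, because its shift was below the SD of 129.4 bp. It was −31.5 bp from the start of the gene and −102.0 bp from the middle of the RNA. With limits of 0 bp, which keep only summits inside the RNA, the count of members and of summits was 0 in both minus AP lists and 1 in each plus AP list, and no member recurred in both plus AP lists (0 against 3). With each list cut to its 56 highest-scoring summits, 0 members had a summit in minus AP replicate 1 and 1 in minus AP replicate 2. The counts with AP were the same, 0 in replicate 1 and 1 in replicate 2, and 0 members recurred in both plus AP lists. With limits of 250 bp, the count in both plus AP lists was 2. Leaving out either replicate, the count of members in the list that remained was 1 to 1 without AP, against 0 in both lists, and 3 to 3 with AP. Limits of 1000 and 5000 bp, a score of 2 or more and the limits of the transcript changed no count. Depth and control immunoprecipitates limit what is detectable: depth is unknown, naive IgG was not analysed here, and a gene without a summit may lie under the threshold.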
